A study of Drosophila melanogaster with 27 samples.

Results

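The genes described here are 36 Drosophila genes that carry cells into, through and out of mitosis. They range from the cyclins and Cdk1 to the kinetochore, the spindle motors and the cleavage machinery. They were chosen by name and function, and all 36 had a probe among the 11509 named genes of the array. The tissue was the eye-antennal imaginal disc of wandering L3 larvae, the epithelial sac that gives rise to the adult eye and antenna. Each of 27 glass arrays carried a test RNA and a common reference RNA in 2 dyes.

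The study compared RNA of mutant discs and of disc fragments with RNA of whole discs. No sample held dividing cells alone or differentiating cells alone. The test RNA came from 9 conditions. Posterior fragments were w1118 eye discs trimmed to the part behind the morphogenetic furrow, the moving front where differentiation begins (4 arrays). The rough allele roX63 (3 arrays) and Su(roDom)519 (3 arrays) give extra R8 photoreceptors, and are called the extra-R8 discs. Whole discs homozygous for ato1 (3 arrays), hh1 (4 arrays), roDom (3 arrays) or E(roDom)2033 (3 arrays) have a furrow that stops early and fewer photoreceptors, and are called the stop-furrow discs. Whole discs heterozygous for roDom (2 arrays) or E(roDom)2033 (2 arrays) completed the set. The labels do not give the zygosity of roX63 or Su(roDom)519. Every array had the same reference, whole eye-antennal discs of an isogenized w1118 stock, and every test genotype other than w1118 carried its mutation in all cells of the animal. A posterior fragment lacks the antennal part and the dividing cells ahead of the furrow, which the reference has.

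Mitosis is started by Cdk1 bound to a cyclin, once the phosphatase String removes the inhibitory phosphates from Cdk1. It is ended by the anaphase-promoting complex, a ubiquitin ligase that destroys the mitotic cyclins and the securin Pimples. In the eye disc, cells ahead of the furrow divide without synchrony, cells in the furrow arrest in G1, and the cells behind it that have not joined a photoreceptor cluster divide a last time in the second mitotic wave. Transcription of string is the usual limiting step for entry into mitosis in these discs, whereas many mitotic proteins are set mainly by their destruction.

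All values below are log2 ratios of test over reference after background correction and loess normalisation, so 1 unit is a 2-fold difference. Values for a condition or a class are means fitted by limma with a term for the dye, with the standard error (SE). Adjusted p-values are Benjamini-Hochberg values over 16490 probes. Ratios and medians of single arrays, and averages within a scanning day, carry no dye term. A gene was called at an adjusted p under 0.05, and rose or fell is said of called genes. The reference went through 1 round of amplification and the test RNA through 2, and no control sample was hybridised against it. A test of a ratio against 0 therefore ignores the spread of the control and takes in whatever the extra round does. Both limits cancel in a difference between 2 test groups. In RNA of whole tissue, fewer cells of a type and less RNA per cell cannot be told apart. The labels do not say whether replicate arrays came from separate dissections, so the p-values measure the spread between these arrays.

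The arrays differed in quality. Between 48.1% and 94.0% of probes stood above background in either channel, and the lowest share was that of posterior fragment replicate 1. Ratios across all probes correlated between replicates of a condition at r of 0.12 to 0.74, with a median of 0.42 over 29 pairs. For replicate 2 of the roDom homozygotes the scanner header and the labels give opposite dye orders, and the labels were followed. For the E(roDom)2033 homozygotes, a label field of replicates 2 and 3 calls them heterozygous, and their titles were followed. Of the 36 genes, thr, asp and Klp61F were dim, above background on 20, 21 and 21 of 27 arrays, and polo on 22. No probe of a member was saturated. The 9 scanning days overlapped the groups only in part. Day 5 held 3 posterior fragment arrays and 1 ato1 array, day 6 held extra-R8 and stop-furrow arrays, and no day held both posterior fragments and extra-R8 discs.

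Few of the mitosis genes were called, those that were moved in both directions, and stg had the largest F statistic. An F test over the 9 conditions called 6 of the 36 genes (16.7%), against 13.8% of all probes, so the share of members called was close to the background. They were stg (F = 9.30, adjusted p = 0.00101), fzr (F = 6.21, adjusted p = 0.00736), aurB (F = 4.09, adjusted p = 0.0399), Klp10A (F = 4.06, adjusted p = 0.0411), asp (F = 4.02, adjusted p = 0.0426) and borr (F = 3.82, adjusted p = 0.0499), all by limma. Leaving out 1 array brought the number down to 2 or 3 for 13 of the 27 arrays, while the call of stg and that of fzr were kept without any of the 27. The calls of aurB, Klp10A, asp and borr were each lost without 15, 16, 18 and 22 of the arrays in turn. Among genes that stood above background on every array, pav (F = 0.43), rod (F = 0.49) and Mps1 (F = 0.64) had the smallest statistics.

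Against the reference, 28 of 324 pairs of gene and condition were called (8.64%), 8 higher and 20 lower, beside 7.52% of all pairs of probe and condition (3.57% higher and 3.96% lower). The members called were 3 of 36 in posterior fragments (all probes, 4.73%), 5 in roX63 (13.5%), 0 in Su(roDom)519 (4.7%), 6 in ato1 (10.7%) and 3 in hh1 (5.94%). In the roDom homozygotes they were 3 (3.71%), in the roDom heterozygotes 0 (5.48%), in the E(roDom)2033 homozygotes 7 (13.7%) and in the E(roDom)2033 heterozygotes 1 (5.2%). In the limma fit, 2 members of Su(roDom)519 discs and 7 of roDom heterozygotes had an unadjusted p under 0.05. At that threshold no count was made over all probes. Scanning days were shared across conditions. Of these 28 calls, 21 were kept with the day as a random block and 10 with it as a fixed block. The 10 were 5 of stg and those of Cdk1, fzr, pim, aurB and SMC2 in ato1. Of all pairs of probe and condition, 5.44% and 4.38% were called in these fits, in place of 7.52%. In all, 15 of the 36 genes were called in at least 1 condition, and 19 were called in none of the 13 tests. The same counts were not made over all probes, so neither number can be set against a background. These 9 comparisons share the reference, so their values are given side by side and are not independent.

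**Figure D1:**
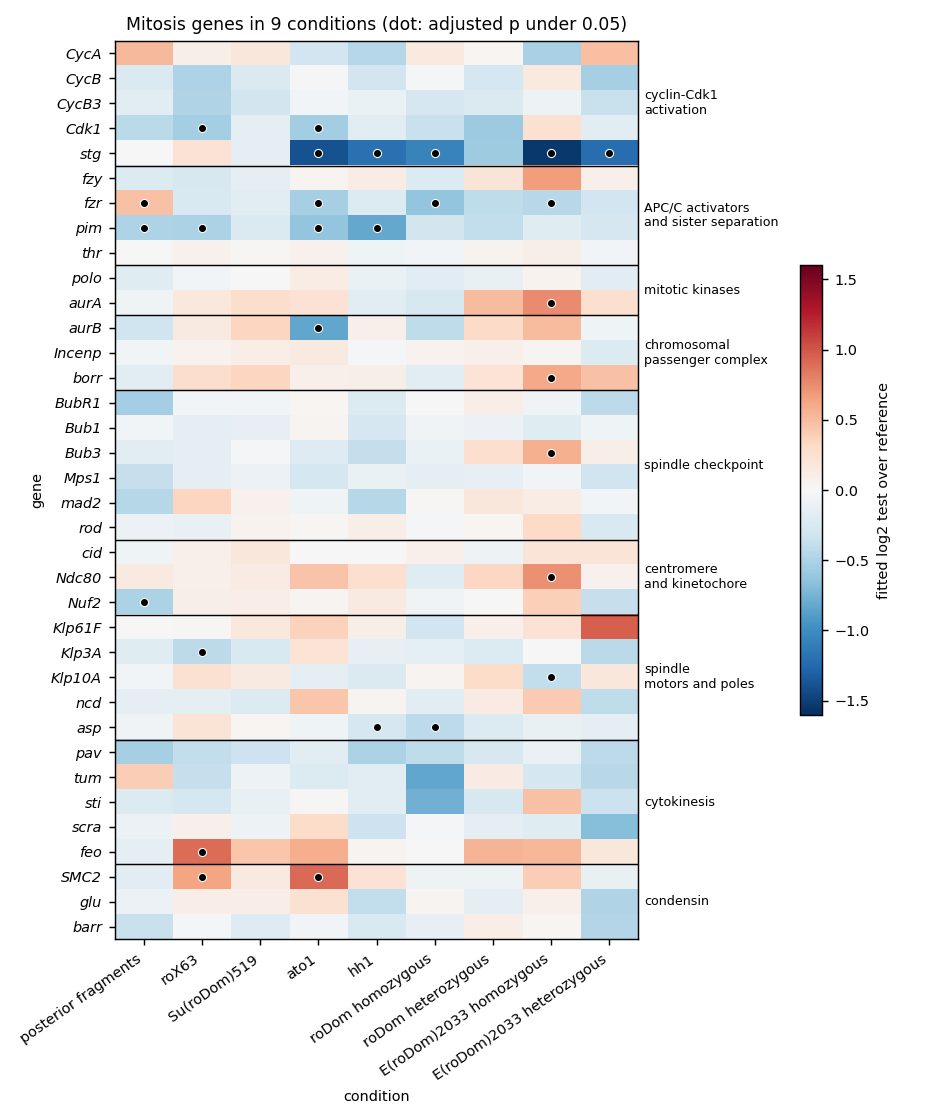
Fitted log2 ratio of test over reference for the 36 mitosis genes (rows, grouped by role) in the 9 conditions (columns), with a dot where limma called the gene at an adjusted p under 0.05. The row of stg is at -1.07 or lower in the 4 stop-furrow genotypes and in E(roDom)2033 heterozygotes and near 0 in posterior fragments and extra-R8 discs, and most other rows hold few dots.

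The gene with the clearest pattern was stg (string, CG1395), the Cdc25-type phosphatase that activates Cdk1. Its ratios in posterior fragments were -0.92, 0.53, 1.09 and -0.14. In roX63 discs they were -0.05, 0.004 and 0.46, and in Su(roDom)519 discs -0.02, -0.45 and -0.25. Posterior fragments therefore spread widely around the reference level, and the extra-R8 arrays lay close to it. The stop-furrow arrays were all low. The ato1 discs had -0.88, -1.39 and -1.63, the hh1 discs -0.68, -0.88, -0.78 and -1.90, the roDom homozygotes -1.15, -0.76 and -1.02, and the E(roDom)2033 homozygotes -1.03, -1.85 and -2.003. All 13 stop-furrow arrays lay below all 6 extra-R8 arrays and below 3 of the 4 posterior fragment arrays, the exception being replicate 1. The roDom heterozygotes had -0.35 and -0.78, and the E(roDom)2033 heterozygotes -1.08 and -1.36.

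Against the reference, stg fell in ato1 (-1.39 ± 0.22, SE, adjusted p = 0.000253), hh1 (-1.19 ± 0.20, adjusted p = 0.000662), roDom homozygotes (-1.07 ± 0.22, adjusted p = 0.01), E(roDom)2033 homozygotes (-1.54 ± 0.22, adjusted p = 9.84e-05) and E(roDom)2033 heterozygotes (-1.22 ± 0.27, adjusted p = 0.0138). It was 2.47-fold higher in posterior fragments than in stop-furrow discs, with fitted means of 0.005 and -1.30 (difference 1.30 ± 0.22, adjusted p = 0.000401). In extra-R8 discs the fitted mean was 0.04, against -1.30 in stop-furrow discs (difference 1.34 ± 0.19, adjusted p = 0.000299). Posterior fragments and extra-R8 discs differed by -0.03 ± 0.26 (adjusted p = 0.974), which does not show that they are alike. Both differences from stop-furrow discs remained called in all 13 alternative analyses and without any of the 27 arrays, at 1.03 to 1.697 and 1.27 to 1.38 when 1 array was left out. Within scanning day 5 the posterior fragments averaged 0.49 and the ato1 array -0.88. Within day 6 the extra-R8 arrays averaged -0.22 and the stop-furrow arrays -1.33. These averages carry no dye term, and the dyes were not balanced between the classes within either day. The fitted dye effect of stg (test RNA in Cy5 minus Cy3) was -0.54. The call in roDom homozygotes was lost when any of its 3 arrays was left out (adjusted p = 0.0557 to 0.0693), and when replicate 2 was turned by its header the value was -0.40 (adjusted p = 0.833). The call in E(roDom)2033 heterozygotes rests on 2 arrays and was lost without either. With the other reading of the zygosity labels, stg in E(roDom)2033 homozygotes was not called (adjusted p = 0.0797).

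CycA, the cyclin that acts with Cdk1 at the start of mitosis, was the other gene of the cyclin and Cdk1 group to differ between classes. It had 1.06, -0.004, 0.43 and 0.60 in posterior fragments. The extra-R8 arrays ran from -0.03 over a median of 0.07 to 0.47, and the stop-furrow arrays from -0.99 over -0.06 to 0.29. Posterior replicates 1, 3 and 4 lay above all 13 stop-furrow arrays, and replicate 2 lay among them. CycA was 1.75-fold higher in posterior fragments (fitted mean 0.52) than in stop-furrow discs (-0.28), a difference of 0.81 ± 0.21 (adjusted p = 0.0162). The call was lost without posterior replicate 1 (0.63, adjusted p = 0.0969) or replicate 4 (0.77, adjusted p = 0.0838), and the other CycA probe gave 0.10. With the day as a fixed block it was 0.58 (adjusted p = 0.274). Within day 5, posterior fragments averaged 0.34 and the ato1 array -0.24.

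The B-type cyclins, which drive the later steps of mitosis until they are destroyed, passed no test. CycB had -0.57, 0.17, 0.49 and -0.41 in posterior fragments. Its extra-R8 arrays ran from -0.93 over -0.43 to -0.15 and its stop-furrow arrays from -0.80 over 0.03 to 0.57. CycB3 had -0.56, -0.10, -0.20 and 0.05 in posterior fragments, -0.93 over -0.31 to -0.07 in extra-R8 discs, and -0.52 over -0.17 to 0.57 in stop-furrow discs. In both genes the 3 classes overlapped (F = 1.56, adjusted p = 0.389 for CycB and F = 0.75, adjusted p = 0.775 for CycB3, limma).

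Cdk1, the kinase itself, was below the reference in all 4 posterior fragment arrays, at -0.75, -0.41, -0.19 and -0.35, which passed no threshold. It fell in roX63 discs, with -0.25, -0.26 and -1.13 (-0.54 ± 0.17, adjusted p = 0.0395). It also fell in ato1 discs, with -0.10, -0.43 and -1.12 (-0.56 ± 0.17, adjusted p = 0.0421). In each case 1 array was far lower than the other 2. Without replicate 3 the value was -0.19 in roX63 (adjusted p = 0.792) and -0.22 in ato1 (adjusted p = 0.683). With the scanning day as a fixed block the value for roX63 changed sign, to 0.10 (adjusted p = 0.944). The E(roDom)2033 homozygotes had 0.36, 0.19 and 0.19, which was not called, and no class contrast called Cdk1.

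**Figure D2:**
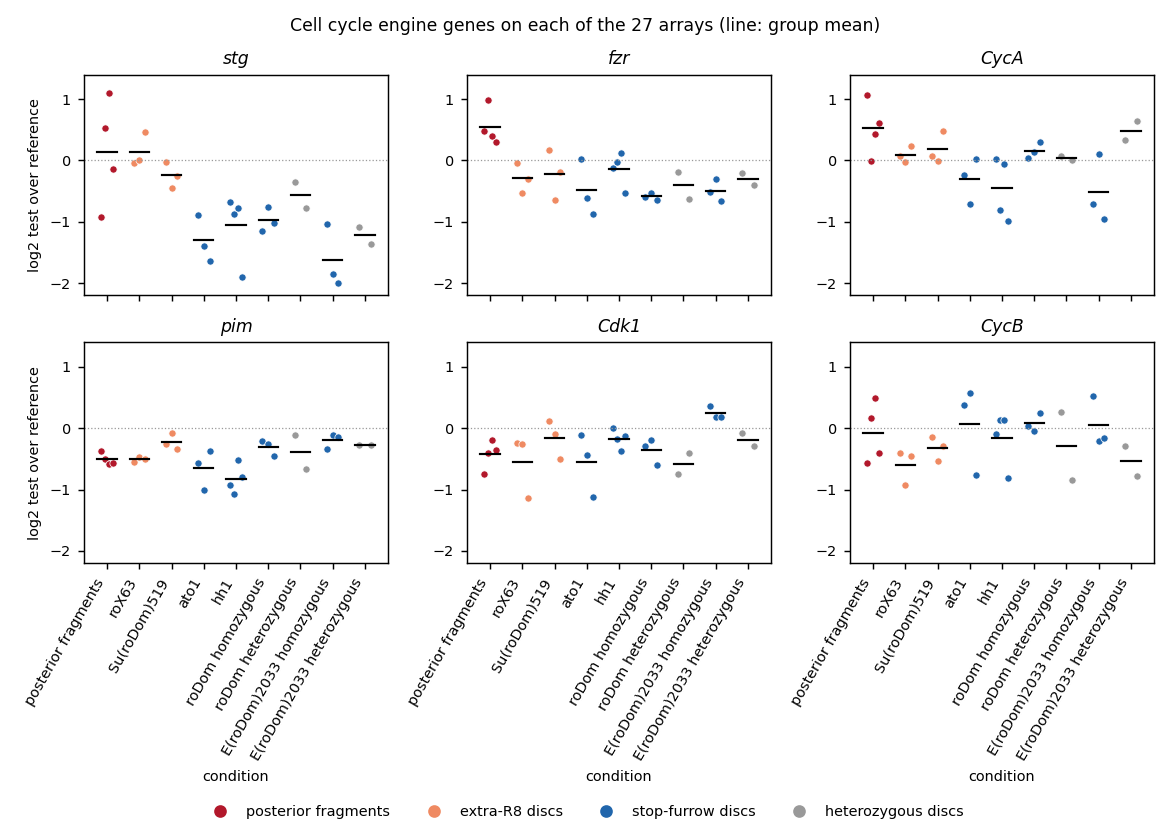
Log2 ratio of test over reference of stg, fzr, CycA, pim, Cdk1 and CycB on each of the 27 arrays, with a line at the mean of each condition and colours for the classes. All stop-furrow points of stg lie below the extra-R8 points, all posterior points of fzr lie above those of both other classes, and all points of pim lie below 0.

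The strongest contrast among the regulators of mitotic exit was that of fzr (fizzy-related), the activator of the anaphase-promoting complex that keeps mitotic cyclins low in G1. Its ratios were 0.49, 0.98, 0.39 and 0.30 in posterior fragments. The extra-R8 arrays ran from -0.64 over -0.25 to 0.18, and the stop-furrow arrays from -0.88 over -0.53 to 0.12. All 4 posterior fragment arrays lay above all 19 arrays of both other classes. Among stop-furrow genotypes the hh1 arrays were nearest to 0, at -0.12, -0.02, 0.12 and -0.53. The roDom homozygotes had -0.60, -0.53 and -0.64, and the E(roDom)2033 homozygotes -0.52, -0.31 and -0.67. The ato1 discs had 0.03, -0.61 and -0.88.

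Against the reference, fzr rose in posterior fragments (0.47 ± 0.12, adjusted p = 0.0323) and fell in ato1 (-0.54 ± 0.14, adjusted p = 0.0165), roDom homozygotes (-0.64 ± 0.14, adjusted p = 0.0137) and E(roDom)2033 homozygotes (-0.45 ± 0.14, adjusted p = 0.0387). It was 1.90-fold higher in posterior fragments (0.47) than in stop-furrow discs (-0.46), a difference of 0.92 ± 0.14 (adjusted p = 0.000115). It was also higher in posterior fragments than in extra-R8 discs (0.67 ± 0.16, adjusted p = 0.0126). The difference from stop-furrow discs was kept without any of the 27 arrays. With the scanning day as a fixed block it was 0.48 ± 0.27 (adjusted p = 0.444), and as a random block 0.81 (adjusted p = 0.000957). Within day 5 the posterior arrays averaged 0.56, against 0.03 on the ato1 array. The difference from extra-R8 discs had an adjusted p of 0.0733 with the day as a random block, and 0.0519 to 0.0555 without roX63 replicate 3, posterior replicate 2 or posterior replicate 4. With the day as a random block fzr in posterior fragments was 0.40 against the reference (adjusted p = 0.153), and as a fixed block 0.13 (adjusted p = 0.865). The calls against the reference were each lost without 2 or more arrays of their own condition in turn, and the value in roDom homozygotes was -0.20 (adjusted p = 0.88) with replicate 2 turned by its header.

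The securin pim (pimples), which holds the separase inactive until anaphase, was below the reference on all 27 arrays by its brightest probe. It had -0.37, -0.51, -0.58 and -0.57 in posterior fragments, -0.54, -0.47 and -0.50 in roX63, and -0.26, -0.08 and -0.33 in Su(roDom)519 discs. The lowest values were in hh1, at -0.92, -1.07, -0.53 and -0.79, and in ato1, at -0.57, -0.999 and -0.37. It fell in posterior fragments (-0.50 ± 0.10, adjusted p = 0.00388), roX63 (-0.51 ± 0.11, adjusted p = 0.00398), ato1 (-0.64 ± 0.11, adjusted p = 0.00064) and hh1 (-0.82 ± 0.10, adjusted p = 2.15e-05). The part of the extra amplification round of the test RNA in this common sign was not tested. The difference between conditions was not called (F = 3.69, adjusted p = 0.0562), nor was any class contrast, whereas a dimmer probe of pim was called between conditions (F = 5.43, adjusted p = 0.0131). With the day as a fixed block the value in hh1 was -0.42 (adjusted p = 0.221). The call in posterior fragments was lost without replicate 4 (-0.46, adjusted p = 0.0644), and the 3 probes of pim did not agree. In hh1 they gave -0.82, -0.82 and, for the dimmest, -0.04. In posterior fragments the dimmer probes gave -0.34 and -0.04, neither called. The dimmest was above the reference in E(roDom)2033 heterozygotes (1.45, adjusted p = 0.0279, limma).

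fzy (fizzy), the Cdc20-type activator of the same complex that starts anaphase, passed no test (F = 1.34, adjusted p = 0.476). It had -0.63, -0.17, -0.08 and -0.08 in posterior fragments, while the extra-R8 arrays ran from -1.22 over 0.14 to 0.31 and the stop-furrow arrays from -0.59 over 0.10 to 1.04. Replicates of 1 genotype disagreed, as in roX63 with 0.18, 0.31 and -1.22. The gene thr, a subunit of the separase complex, was near background and its arrays lay between -0.28 and 0.18 in the 3 classes.

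Of the free mitotic kinases, polo (Polo kinase) varied little. Its ratios were -0.42, 0.04, -0.02 and -0.20 in posterior fragments, -0.17 over -0.06 to 0.07 in extra-R8 discs, and -0.32 over 0.03 to 0.47 in stop-furrow discs (F = 1.33, adjusted p = 0.481). aurA (Aurora A), which builds the spindle poles, rose in E(roDom)2033 homozygotes, where it had 0.94, 0.28 and 1.16 (0.76 ± 0.18, adjusted p = 0.00664). Replicate 2 was much lower than the other 2 arrays, and the call was lost without replicate 1 (0.57, adjusted p = 0.168) or 3 (0.61, adjusted p = 0.105).

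The chromosomal passenger complex corrects attachments of chromosomes to the spindle and later marks the cleavage plane. Its kinase aurB (Aurora B) had -1.08, -0.59, -0.13 and 0.14 in posterior fragments. In ato1 discs it had -0.98, -0.75 and -0.96, close together and lower than any array of the other stop-furrow genotypes except 1 roDom homozygote. It fell there (-0.84 ± 0.21, adjusted p = 0.0109), and the 3 probes of aurB gave -0.64, -0.58 and -0.84. The call was lost without ato1 replicate 3 (-0.65, adjusted p = 0.183). The E(roDom)2033 homozygotes had 0.59, 0.20 and 0.89, which was not called. The other stop-furrow genotypes lay on both sides of 0, and no class contrast called aurB.

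borr (borealin-related), a scaffold subunit of the same complex, rose in E(roDom)2033 homozygotes, with 0.80, 0.15 and 0.91 (0.60 ± 0.13, adjusted p = 0.00443). It was lost without replicate 1 (0.46, adjusted p = 0.137) or 3 (0.47, adjusted p = 0.0885). Posterior fragments had -0.46, -0.15, -0.10 and -0.05, all below 0, and the extra-R8 arrays ran from -0.06 over 0.44 to 0.51. These classes overlapped at the end of their ranges, and the contrast was not called. Incenp, the subunit that binds and activates Aurora B, passed no test (F = 0.67, adjusted p = 0.817) and had 0.001 to 0.19 in extra-R8 discs.

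The spindle checkpoint delays anaphase while kinetochores are unattached. Bub3, which brings the Bub1 and BubR1 kinases to kinetochores, rose in E(roDom)2033 homozygotes, with 0.95, 0.13 and 0.57 (0.57 ± 0.15, adjusted p = 0.0147). It was lost without replicate 1 (0.37, adjusted p = 0.316) or 3 (0.54, adjusted p = 0.103). mad2, the inhibitor that binds Fizzy, had -0.92, -0.37, -0.67 and -0.28 in posterior fragments, against 0.63, 0.47 and 0.14 in roX63 and -0.12, 0.43 and 0.12 in Su(roDom)519 discs. These 4 and 6 arrays did not overlap, and mad2 was lower in posterior fragments (-0.45) than in extra-R8 discs (0.21) by the limma fit (-0.66 ± 0.20, adjusted p = 0.0486). All 3 probes of mad2 gave values of -0.55 to -0.66, and the other 2 were not called (adjusted p = 0.221 and 0.123). The call was lost in 6 of 13 alternative analyses and without 19 of the 27 arrays in turn, and no scanning day holds both classes. Without single arrays the value was -0.75 to -0.58, and with the day as a fixed block -0.23 (adjusted p = 0.843). The stop-furrow arrays ran from -1.12 over -0.13 to 0.56.

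The other checkpoint genes passed no test. BubR1 had 1 posterior array at -1.42 among values up to 0.07. Bub1 stayed between -0.49 and 0.20 in the 3 classes. Mps1, a kinase at the head of the checkpoint, ran from -0.81 over -0.31 to -0.21 in posterior fragments, from -0.49 to 0.15 in extra-R8 discs and from -0.69 to 0.20 in stop-furrow discs. rod (rough deal), which recruits dynein to kinetochores, ran from -0.54 over -0.02 to 0.16 in posterior fragments, from -0.68 to 0.43 in extra-R8 discs and from -0.64 to 0.55 in stop-furrow discs. The ranges of all 3 classes overlapped for each of these genes.

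At the kinetochore, Ndc80 and Nuf2 form the rod that grips spindle microtubules, and they were called in different conditions. Nuf2 had -1.09, -0.65, -0.23 and -0.42 in posterior fragments. Its extra-R8 arrays ran from -0.25 over 0.23 to 0.52, and its stop-furrow arrays from -0.49 over 0.09 to 0.66. Posterior replicate 3 reached into the range of both other classes and replicate 4 into that of the stop-furrow discs. Nuf2 was lower in posterior fragments than in the reference (-0.51 ± 0.14, adjusted p = 0.0362), than in stop-furrow discs (-0.64 ± 0.16, adjusted p = 0.0115) and than in extra-R8 discs (-0.61 ± 0.18, adjusted p = 0.0419). The difference from stop-furrow discs was lost without posterior replicate 1 (-0.51, adjusted p = 0.0728) or 4 (-0.60, adjusted p = 0.0702), and was -0.34 within scanning day 5. The call against the reference was lost without posterior replicates 1, 2 or 4, and the one against extra-R8 discs without 13 of the 27 arrays in turn.

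Ndc80 rose in E(roDom)2033 homozygotes, with 0.85, 0.47 and 0.91 (0.73 ± 0.16, adjusted p = 0.00434). Without replicate 1 it was 0.63 (adjusted p = 0.101) and without replicate 3 it was 0.66 (adjusted p = 0.0566). Its posterior values ran from -0.12 to 0.35, inside the range of the stop-furrow discs. In E(roDom)2033 homozygotes the 3 probes of Ndc80 gave 0.73, 0.835 and 0.37, and the last was not called (limma, adjusted p = 0.0652). The 7 calls in E(roDom)2033 homozygotes rest on titles that another label field contradicts for 2 of the 3 arrays. Read the other way, 1 homozygote array is left, and its test takes the spread of the other conditions for its own, so a call under that reading has no replicate behind it. In that fit 5 of the 7 did not pass, with aurA at 1.10 (adjusted p = 0.0517), Ndc80 at 0.93 (adjusted p = 0.0972), Klp10A at -0.59 (adjusted p = 0.148), fzr at -0.69 (adjusted p = 0.127) and stg as given above.

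The third kinetochore gene, cid, the centromeric histone that marks where kinetochores form, ran from -0.31 to 0.32 in the 3 classes, and passed no test.

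Among the spindle motors, Klp10A, a kinesin that takes microtubules apart at their ends, was higher in extra-R8 discs than in stop-furrow discs. Its arrays were 0.49, 0.02 and 0.23 in roX63 and -0.04, 0.23 and 0.27 in Su(roDom)519, against -0.57 over -0.14 to 0.28 in stop-furrow discs. The classes overlapped, and their fitted means were 0.20 and -0.18 (difference 0.38 ± 0.10, adjusted p = 0.019). Posterior fragments lay between, at -0.15, -0.02, 0.07 and -0.08. The difference was 0.09 within scanning day 6 and was not called with the day as a random block (0.31, adjusted p = 0.124), nor without roX63 replicate 1 or 3 or Su(roDom)519 replicate 2 or 3 (adjusted p = 0.0518 to 0.0597). Against the reference, Klp10A fell in E(roDom)2033 homozygotes, with -0.57, -0.10 and -0.49 (-0.39 ± 0.11, adjusted p = 0.0249), and this was lost without replicate 1 or 3.

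asp (abnormal spindle), which focuses microtubules at spindle poles, was also higher in extra-R8 discs (0.13) than in stop-furrow discs (-0.22), by 0.35 ± 0.08 (adjusted p = 0.00887). The 3 roX63 arrays had 0.08, 0.08 and 0.46 and the 3 Su(roDom)519 arrays -0.13, -0.05 and 0.23, against -0.71 over -0.18 to -0.015 in stop-furrow discs. All 13 stop-furrow arrays were below 0, and 2 extra-R8 arrays lay among them. Only 1 of 3 roX63 arrays had a test signal of asp above background, and without roX63 replicate 3 the difference was 0.28 (adjusted p = 0.0667). It was 0.14 within scanning day 6, and 0.30 with the day as a random block (adjusted p = 0.0848). asp fell against the reference in roDom homozygotes (-0.41 ± 0.09, adjusted p = 0.013), with -0.71, -0.31 and -0.18, and in hh1 (-0.27 ± 0.08, adjusted p = 0.0499), with -0.06, -0.27, -0.37 and -0.29. The value in roDom homozygotes was -0.26 without replicate 1 (adjusted p = 0.289) and -0.19 with replicate 2 turned by its header (adjusted p = 0.782). Turned so, the class difference of asp was 0.28 (adjusted p = 0.13). The call in hh1 was lost without 21 of the 27 arrays in turn.

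Klp3A, a chromosome-associated kinesin, fell in roX63 discs, with -0.08, -0.34 and -0.79 (-0.42 ± 0.12, adjusted p = 0.0207). The value was -0.24 without replicate 3 (adjusted p = 0.473), and the call was also lost without replicate 2. Klp61F, the kinesin that pushes spindle poles apart, and ncd, the minus-end motor that pulls them together, passed no test. Klp61F was dim, and its E(roDom)2033 heterozygote arrays had 2.11 and -0.19.

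Of the cytokinesis genes only feo (fascetto), which bundles microtubules of the central spindle, was called. It rose in roX63 discs, with 0.57, 0.87 and 1.21 (0.90 ± 0.20, adjusted p = 0.00503), and had 0.30, 0.60 and 0.40 in Su(roDom)519 discs, which was not called. Posterior fragments had -0.52, 0.53, -0.30 and -0.22, and replicate 2 alone overlapped the extra-R8 arrays. feo was lower in posterior fragments (-0.15) than in extra-R8 discs (0.67), by -0.82 ± 0.23 (adjusted p = 0.0312). The adjusted p was 0.099 with the day as a random block, and 0.0648 to 0.119 without roX63 replicate 3, Su(roDom)519 replicate 2 or posterior replicates 1, 3 or 4. The call in roX63 was lost without replicate 3 (0.74, adjusted p = 0.121) and with the day as a fixed block (0.37, adjusted p = 0.672).

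pav (pavarotti) and tum (tumbleweed), which make up the centralspindlin complex, sti (sticky, the citron kinase) and scra (scraps, the anillin of the contractile ring) passed no test. pav had -1.32, -0.28, 0.26 and -0.55 in posterior fragments, from -0.83 over -0.36 to -0.07 in extra-R8 discs and from -1.02 over -0.19 to 0.51 in stop-furrow discs. tum was uneven among replicates, with -0.44, 0.81, 0.84 and 0.66 in posterior fragments. The roDom homozygotes had -0.79, -1.30 and -0.25 for tum and -0.76, -0.88 and -0.66 for sti, neither of them called.

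In the condensin complex, which compacts chromosomes, SMC2 rose in ato1 discs, with 1.36, 0.77 and 0.55 (0.90 ± 0.21, adjusted p = 0.00654). It also rose in roX63 discs, with 0.81, 0.81 and 0.29 (0.63 ± 0.21, adjusted p = 0.0487). The rise in ato1 was kept in 13 of 13 alternative analyses and lost without replicate 1 (0.66, adjusted p = 0.0884). The rise in roX63 was lost in 5 of 13 and without 19 of the 27 arrays in turn. The partners of SMC2, glu (gluon, the SMC4 subunit) and barr (barren, a non-SMC subunit), passed no test (F = 0.88, adjusted p = 0.702 and F = 0.68, adjusted p = 0.812).

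Across the 3 classes, 4 of the 36 members differed between posterior fragments and stop-furrow discs, while 7.97% of all probes did (4.97% higher and 3% lower). These were stg, fzr and CycA, which were higher, and Nuf2, which was lower. Between extra-R8 and stop-furrow discs 3 differed (all probes, 8.11%, of which 4.41% higher and 3.7% lower), namely stg, asp and Klp10A, all higher. Between posterior fragments and extra-R8 discs 4 differed (7.88%, of which 4.49% higher and 3.38% lower), with fzr higher and feo, mad2 and Nuf2 lower. The shares of 11.1%, 8.33% and 11.1% were near the background. At an unadjusted p under 0.05 the counts were 9, 8 and 7, with no count over all probes to set beside them. With the scanning day as a random block, 4, 1 and 0 were called (all probes, 5.68%, 3.2% and 2.93%). With it as a fixed block 1, 1 and 0 were called (3.25%, 2.6% and 2.81%), the 1 being stg. The shares over all probes therefore fell as well. The first count was 2 without posterior replicate 1 or 4, the second was 1 without roX63 replicate 3, and the third was 0 to 2 without any of 13 arrays in turn. The members' median differences were -0.16, 0.02 and -0.11, beside -0.01, -0.01 and -0.003 over all probes. With the day as a fixed block the members' medians were -0.43, 0.21 and -0.51. The 3 contrasts share groups, so they are not independent of each other.

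**Figure D3:**
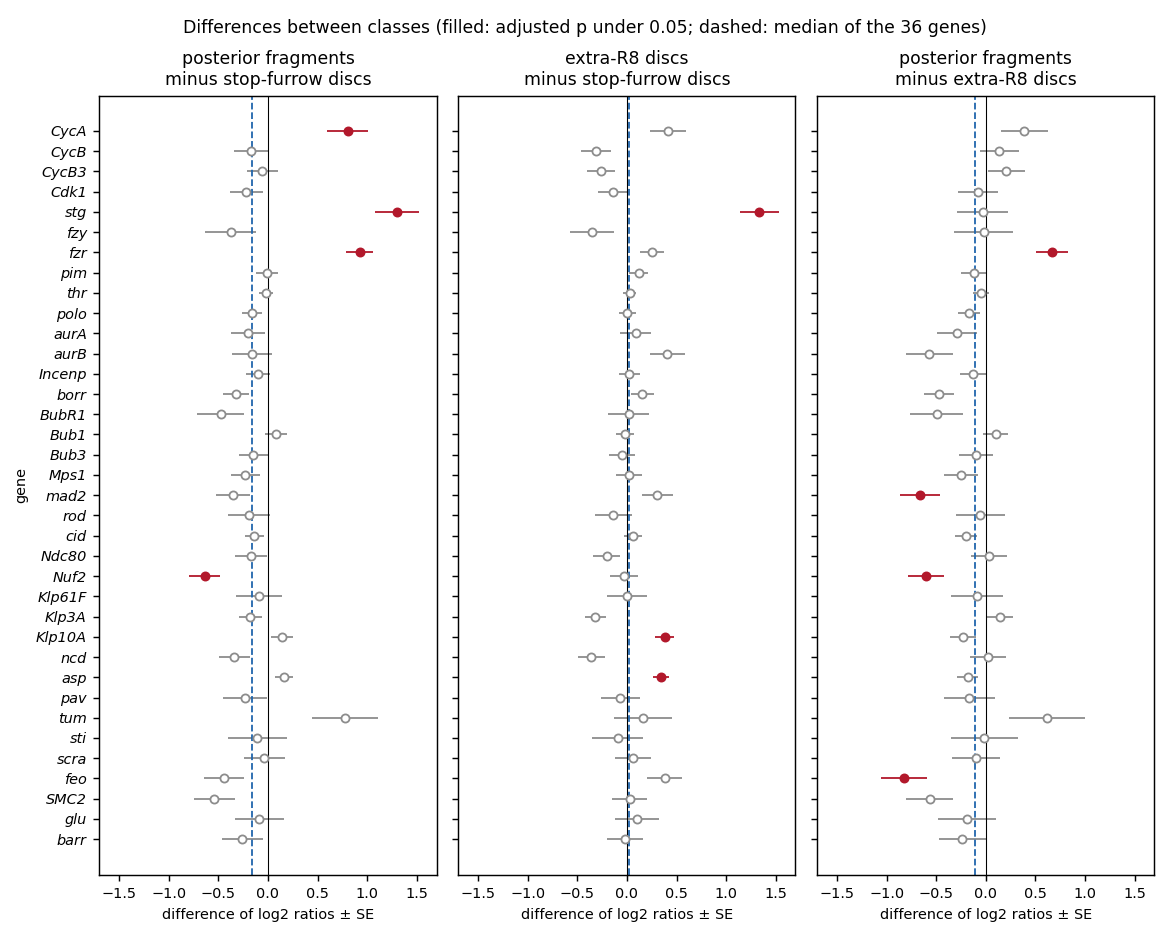
Differences in log2 ratio between classes for the 36 genes, with bars of 1 SE, filled points where limma called the gene, and a dashed line at the median of the 36 genes. The difference of stg is 1.30 for posterior fragments minus stop-furrow discs and 1.34 for extra-R8 minus stop-furrow discs, and the medians lie at -0.16, 0.02 and -0.11.

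In several conditions the list as a whole moved more with single arrays than between conditions. In posterior fragments the median over the 36 genes was -0.53 on replicate 1, against -0.08, 0.07 and -0.08 on the other 3 arrays. On replicate 1, 33 of the 36 genes were below 0, and this was also the array with the fewest probes above background. Without it, the members' median against the reference was -0.02, in place of -0.16, and the median difference from stop-furrow discs was -0.04. In ato1 discs the medians were 0.31, -0.05 and -0.24, in roX63 discs 0.07, -0.03 and -0.31, and in Su(roDom)519 discs 0.002, 0.07 and -0.08. The hh1 arrays had -0.10, -0.03, -0.08 and -0.28, the roDom homozygotes -0.11, -0.30 and -0.03, and the E(roDom)2033 homozygotes 0.16, 0.03 and 0.04. The roDom heterozygotes had -0.05 and 0.04 and the E(roDom)2033 heterozygotes -0.15 and -0.20, so their arrays lay closer together. The arrays of posterior fragments, ato1, roX63, hh1 and roDom homozygotes lay further apart than the condition medians, which ran from -0.17 to 0.04. No class sat wholly above or below another.

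**Figure D4:**
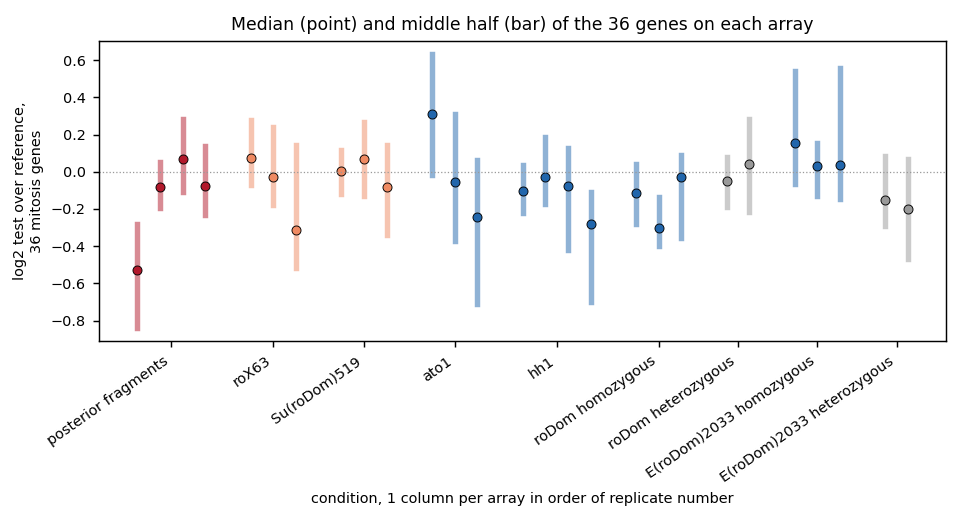
Median log2 ratio of the 36 mitosis genes on each of the 27 arrays, with bars from the 25th to the 75th percentile of the genes. Posterior fragment replicate 1 is lowest at -0.53, and the medians of the other arrays lie between -0.31 and 0.31.

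The further mitosis genes numbered 78 (centrosome, cohesin, more subunits of the anaphase-promoting complex and of the kinetochore), and 69 had a probe. The F test called 10 of these 69, beside 13.8% of all probes, so the share was close to the background. Calls in this list went in both directions. Between posterior fragments and stop-furrow discs 3 were higher and 2 lower (all probes, 4.97% and 3%). The condensin II subunit Cap-D3 was higher by 0.58 ± 0.14 (adjusted p = 0.00925), and wac, an augmin subunit that nucleates spindle microtubules, lower by -0.90 ± 0.15 (adjusted p = 0.000476). Between extra-R8 and stop-furrow discs 4 were higher and 3 lower (all probes, 4.41% and 3.7%). The higher ones included the kinetochore subunit Spc25 (0.53 ± 0.13, adjusted p = 0.0116). The lower ones included vih, a ubiquitin-conjugating enzyme of mitotic exit (-0.67 ± 0.18, adjusted p = 0.0217). Between posterior fragments and extra-R8 discs 2 were higher and 8 lower (all probes, 4.49% and 3.38%). Spc25 was lower there (-0.85 ± 0.17, adjusted p = 0.00298). The largest F belonged to wac (36.4, adjusted p = 1.28e-07), which was 2.30 ± 0.14 above the reference in hh1 discs (adjusted p = 5.91e-10). The hh1 discs are among the 4 equally weighted stop-furrow genotypes. Their high wac value therefore enters its difference from posterior fragments, which was not taken without them.

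In E(roDom)2033 homozygotes most of the DNA replication genes were called, beside 13.7% of all probes. There 22 of 31 genes rose and 1 fell, with a median of 0.56, against 4 of 36 mitosis genes that rose and 3 that fell, with a median of 0.09. RnrL (1.54 ± 0.30, adjusted p = 0.00165) and RnrS (1.31 ± 0.17, adjusted p = 2.91e-05), the subunits of ribonucleotide reductase, and the primase subunit Prim1 (1.10 ± 0.20, adjusted p = 0.000849) rose, whereas geminin, the inhibitor of replication licensing, fell (-1.34 ± 0.42, adjusted p = 0.0402). The difference between the 2 lists was not tested. The median of the replication list was 0.68, 0.40 and 0.59 on replicates 1, 2 and 3, and a label field calls replicates 2 and 3 heterozygous. The calls of this list were not repeated under that reading, with the scanning day in the fit or without single arrays. In the same discs stg fell and aurA, borr, Bub3 and Ndc80 rose. In posterior fragments 4 of 31 replication genes were lower than in stop-furrow discs and 0 were higher (all probes, 3% and 4.97%). These were RnrS (-0.75 ± 0.17), Orc2 (-0.69 ± 0.17), PCNA (-0.64 ± 0.18) and Psf2 (-0.48 ± 0.12), with adjusted p-values of 0.00629 to 0.032. The stop-furrow class includes the E(roDom)2033 homozygotes, in which RnrS rose. Against the reference, 1 of the 31 genes was lower in posterior fragments and 0 were higher (all probes, 4.73% in either direction), with a median of -0.09.

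Among 14 genes of G1 and of exit from the cell cycle, dap (dacapo), the p27-type inhibitor of cyclin E and Cdk2, was, like stg, higher in both other classes than in stop-furrow discs. It was higher in posterior fragments than in stop-furrow discs (0.90 ± 0.24, adjusted p = 0.019), and higher in extra-R8 than in stop-furrow discs (1.26 ± 0.21, adjusted p = 0.00088). CycD, a cyclin of growth and G1, was higher in extra-R8 than in stop-furrow discs (0.84 ± 0.20, adjusted p = 0.0107). Of the 14 genes, 1 was called between posterior fragments and stop-furrow discs (all probes, 7.97%). Between extra-R8 and stop-furrow discs 2 were called (8.11%), and between posterior fragments and extra-R8 discs 0 were (7.88%). No gene of this list was called lower in any of the 3 class contrasts.

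Among markers of cell types, the photoreceptor list moved with the classes. Of 10 photoreceptor and neuronal genes, 5 were higher in posterior fragments than in stop-furrow discs and 0 lower (all probes, 4.97% and 3%). These were led by chp, a photoreceptor surface protein (3.19 ± 0.27, adjusted p = 7.62e-08). In extra-R8 discs 3 were higher than in stop-furrow discs (all probes, 4.41%). Among them was scrt, a neuronal transcription factor (1.26 ± 0.22, adjusted p = 0.00128). In posterior fragments 4 were higher than in extra-R8 discs (all probes, 4.49%). The median of this list on single arrays was 0.06 to 0.53 in posterior fragments, -0.29 to 0.001 in extra-R8 discs and -0.78 to -0.15 in stop-furrow discs. The differences of stg and fzr between posterior fragments and stop-furrow discs lie in the same direction. In the limma fit stg was not called between posterior fragments and extra-R8 discs, nor fzr between extra-R8 and stop-furrow discs. A missed threshold does not show that a gene is unchanged there. Of 9 antennal genes 1 was higher and 1 lower in posterior fragments than in stop-furrow discs, and likewise 1 and 1 of 5 glial genes. Of the hemocyte, fat body and muscle genes 0 of 5, 0 of 6 and 0 of 8 were called in any class contrast. Against the reference, 4 of 8 muscle genes (median 0.79) and 2 of 6 fat body genes (median 1.11) rose in roX63 discs, where feo and SMC2 rose and Cdk1, pim and Klp3A fell, and 2 of 5 glial genes fell there. In roDom homozygotes, where stg, fzr and asp fell, 2 of 8 muscle genes rose. In ato1 discs, where SMC2 rose and stg, aurB, pim, Cdk1 and fzr fell, 3 of 5 glial genes fell. Of all probes, 13.5% were called in roX63, 3.71% in roDom homozygotes and 10.7% in ato1 discs. Some single arrays had high values for these lists. The fat body median reached 2.80 on ato1 replicate 3, 2.25 on E(roDom)2033 heterozygote replicate 1 and 2.21 on roX63 replicate 2, and the muscle median 1.97 on roDom homozygote replicate 1. In ato1, replicate 3 was also the array with the lowest Cdk1. In roX63 the lowest Cdk1 was on replicate 3, where the fat body median was 0.365, and not on replicate 2. The part of these cell types in the results for the mitosis genes was not tested.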

How the data were processed

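RNA was measured on 27 arrays of 17664 spots. The deposited scanner files hold, per the file headers, the pixel intensity and local background of each spot in both channels, the percent of saturated pixels and a score per spot that marks bad or missing spots. The deposited value table holds the authors' log2 ratios, with the reference on top, and was an alternative. Its column for hh1 replicate 2 is the exact negative of another column and was left out. In limma 3.58.1 (R 4.3.3), spots scored -75 or lower were dropped, background was corrected by normexp with an offset of 50, ratios were normalised by loess (span 0.3) and turned by the dye in the labels, and spots of a probe were averaged. Groups followed the titles. The fit had 9 means and a dye term, with two-sided tests over 16490 probes measured on at least 2 arrays per group, and classes weighted their genotypes equally. A probe stood above background at 2 SDs of it. Of 16496 probes, 12748 were named by the current and 2753 by an older identifier of the RefSeq gene table. Each gene was read from its brightest probe, and 46 probes covered the 36 members. Full values are given for members called in the F test or a class contrast, for the 3 largest and the 3 smallest F statistics among those above background, and for stg, CycA, CycB, CycB3, Cdk1, fzy, fzr, pim and polo. Other members appear by range, count or calls against the reference. Single arrays of other genes were chosen after their values were seen. The members, lists and tests were chosen with earlier results of these data known. The number of arrays limits the precision. Alternatives were the dye term, background, normalisation, filters, scanning day, label readings, the 7th array series, the value table, the mean over probes and each array left out.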

Additional observations from a re-analysis of the deposited data

Results flagged for a closer look

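In each group of 4 arrays (posterior fragments and hh1), the gap between the highest or lowest array and its neighbour was set against the whole range of the group by Dixon's criterion. Chance finds about 1 in 20 groups, and 4 of 72 gene and group pairs were found. For stg, hh1 replicate 4 had -1.90, with the other hh1 arrays between -0.88 and -0.68. Replicate 4 had the test RNA in Cy5 and replicates 1 to 3 in Cy3. The fitted dye effect of stg (Cy5 minus Cy3) was -0.54, and its part in this gap was not tested. The other 3 pairs found were all on posterior fragment replicate 1, the array with the fewest probes above background. There fzy had -0.63 (other arrays -0.17 to -0.08), tum -0.44 (0.66 to 0.84) and glu -1.05 (0.22 to 0.43).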

How the results depend on the processing

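In the analysis as reported, 6 members were called in the F test, 28 pairs against the reference, 4 for posterior fragments minus stop-furrow discs, 3 for extra-R8 minus stop-furrow discs and 4 for posterior fragments minus extra-R8 discs. The shares over all probes were 13.8%, 7.52%, 7.97%, 8.11% and 7.88%. The scanning day was then taken as a random block (correlation within a day 0.238). There the extra-R8 minus stop-furrow count was 1 (all probes, 3.2%) and the posterior minus extra-R8 count 0 (2.93%). As a fixed block the counts were 3, 13, 1, 1 and 0 (all probes, 11.7%, 4.38%, 3.25%, 2.6% and 2.81%). With the 7th array series alone the F count was 2, that for posterior fragments minus stop-furrow discs 2 and that for posterior minus extra-R8 discs 1. The other reading of the E(roDom)2033 labels gave 2 for posterior minus extra-R8 discs. With roDom homozygote replicate 2 turned by its header, the F count was 2 (all probes, 10.2%) and that against the reference 17 (5.8%). The count for posterior minus extra-R8 discs was 2 in that fit (6.46%). Leaving out each array in turn gave 2 to 9 by the F test, 19 to 31 against the reference, 2 to 5 and 1 to 4 against stop-furrow discs, and 0 to 5 for posterior minus extra-R8 discs. Several arrays gave the lowest count in the F test (5 arrays), against the reference (E(roDom)2033 homozygote replicates 1 and 3) and for posterior minus stop-furrow discs (posterior replicates 1 and 4). The lowest extra-R8 minus stop-furrow count came without roX63 replicate 3, and the 0 without posterior replicate 4. The other alternatives left all 5 counts within 1.5 times, but an equal count was not an equal share. The F count was 6 as reported, with the stricter spot score and from the deposited log2 ratios. Of all probes, 13.8%, 20.8% and 26.2% were called in these 3 fits. Over 45 results of single members, 1455 of 1785 alternative values kept direction and side of the threshold, 329 lost the call and 1 reversed, which was Cdk1 in roX63 at 0.10 with the day as a fixed block. The cause was not tested. The members' median for posterior fragments minus stop-furrow discs was -0.24 to -0.04 without single arrays. Of the 36 members, 32 could be tested with the stricter spot score and 28 from the deposited log2 ratios. Dim probes (thr, asp, Klp61F, polo) limit what their ratios can show. No paired analysis was possible because the labels give no replicate numbers that the groups share.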
